A study of Mus musculus with 6 samples.

Results

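The genes described here encode the protein components of the cytosolic ribosome. They were taken from the count table by symbol: an Rpl or Rps stem followed by a number, with the paralog endings a, x, l, al and l1 allowed, plus Rpsa and the stalk genes Rplp0, Rplp1 and Rplp2. The rule found 83 of the 31017 genes in the table, 52 of the large subunit (Rpl) and 31 of the small subunit (Rps). It left out pseudogene symbols and the Rps6k kinases. After the filter on low counts 82 members were tested, 51 Rpl and all 31 Rps. The remaining one was the testis-type copy Rpl10l, which had 0 counts in every library.

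RNA was sequenced from mouse T helper 17 (Th17) cells, a CD4+ T cell type that makes interleukin 17. All cells had been differentiated in culture. The control group, with genotype WT, had 3 libraries, and the RTF1-deficient group, with genotype KO, had 3. RTF1 is a subunit or partner of the PAF1 complex, which travels with RNA polymerase II and is needed for the monoubiquitination of histone H2B on transcribed genes. The labels give no allele, Cre driver, age or cytokine for either group, and they do not say whether the libraries came from separate mice or cultures. P-values therefore measure only the spread between these libraries, which may be technical in part.

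A ribosome carries 1 copy of nearly every one of these proteins, apart from the acidic stalk proteins, and cells make them in matched amounts. Their mRNAs are among the most abundant in dividing cells. Most begin with a run of C and T bases at the start of transcription, the terminal oligopyrimidine (TOP) tract, through which the mTOR pathway controls their translation. Many of the genes also hold small nucleolar RNAs (snoRNAs) in their introns. Activated T cells depend on this machinery as they grow and divide.

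The TOP tract is known for most of these genes, and the choice by symbol did not use it. The start-site sequences of the members on which the results below turn are therefore given first. Each is 30 bases, from 10 bases before the RefSeq start to 20 bases after it, read 5′ to 3′ on the gene's strand from GRCm38.p6, with the longest run of C and T in capitals. The first 6 belong to the genes that were lower in KO libraries, and the last 2, Rpl31 and Rps7, to those furthest in the other direction.
Rpl22l1 (chr3:28805498-28805527, plus strand): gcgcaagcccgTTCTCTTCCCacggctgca
Rps2 (chr17:24720053-24720082, plus strand): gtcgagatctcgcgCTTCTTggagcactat
Rpsa (chr9:120127756-120127785, plus strand): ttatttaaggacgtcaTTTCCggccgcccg
Rps12 (chr10:23787190-23787219, minus strand): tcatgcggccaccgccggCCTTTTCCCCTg
Rpl12 (chr2:32961702-32961731, plus strand): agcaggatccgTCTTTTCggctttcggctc
Rpl35a (chr16:33056472-33056501, plus strand): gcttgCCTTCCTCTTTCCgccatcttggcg
Rpl31 (chr1:39367841-39367870, plus strand): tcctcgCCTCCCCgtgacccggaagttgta
Rps7 (chr12:28635934-28635963, minus strand): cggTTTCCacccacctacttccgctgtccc

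RefSeq starts were matched by symbol for 63 of the 83 members. A run of at least 7 C or T bases stood in the window of 33 of these 63 (52.4%), against 20.5% of 27025 genes. The median longest run was 7 bases in members and 5 in all genes. Among the sequences shown, Rpl22l1, Rps12, Rpl12, Rpl35a and Rpl31 have such a run, and Rps2, Rpsa and Rps7 have none in this window. Of the 6 genes lower in KO libraries 4 hold one, and of the other 57 matched members 29 do. Where a gene has several RefSeq starts, the one with the longest run was taken, and a start placed a few bases off shifts the window. Several windows, such as that of Rps2, lie inside the gene span given below and not at its edge. The run may lie anywhere in the window, so it need not be a TOP tract at the first base.

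The targeted gene was checked first. Rtf1 (chr2:119675068-119735407) stood at 94.0, 91.2 and 88.3 CPM (read counts normalised for library size with TMM factors) in control libraries 1, 2 and 3 and at 45.3, 30.4 and 26.2 CPM in the KO libraries (log2 -1.42, SE 0.191, edgeR adjusted p = 0.000755). Every KO library was below every control, and each still held Rtf1 reads. Library totals ran from 16489813 to 51271226 counts in controls and from 19304121 to 35907999 in KO. The T helper markers Cd3e, Cd3d, Cd4 and Trac summed to 1018 to 1294 CPM in controls and 889 to 1075 in KO, but not in step: Cd4 was lower in KO (52.3% of control, log2 -0.94, edgeR adjusted p = 0.00132), Cd3e was higher (0.71, 0.00242), and Cd3d (-0.46, 0.0525) and Trac (-0.20, 0.274) were not called. Of 5 Th17 markers 4 were lower in KO and 0 higher, with a median log2 fold change of -1.28, where 22.9% of all genes were lower. Their sum was 1315 to 1985 CPM in controls and 486 to 1114 in KO. The Th17 cytokine genes Il17a (log2 -1.65, edgeR adjusted p = 0.0125) and Il17f (-1.28, 0.0144) were lower in KO libraries but remained expressed, at 92.8 ± 61.6 and 507 ± 269.6 CPM (SD, n = 3). The summed CD8 and NK markers were 7.05 to 10.9 CPM in controls and 15.5 to 25.7 in KO. Most of the increase lay in Prf1, from 0.328 to 12.1 CPM, while Klrb1c and Ncr1 had 0 counts. Myeloid markers summed to 0.784 to 0.790 CPM in controls and 1.84 to 3.61 in KO, and those of B cells (1.24 to 3.09 and 1.74 to 2.62), erythroid cells (1.18 to 2.92 and 0.988 to 2.03) and fibroblasts (0.486 to 0.665 and 0.107 to 0.797) overlapped. The part of these cells in the values below was not tested. Control and KO library 3 held counts of Y-linked genes (11376 and 5147) and 5 and 1 counts of Xist, while the other 4 libraries held 1 to 3 Y-linked counts and 14668 to 28176 of Xist. Library 3 of each group thus differed in sex from libraries 1 and 2, so values from replicates 1 and 2 alone are given where they change a result.

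Most ribosomal protein mRNAs differed little between control and KO libraries. At an edgeR adjusted p under 0.05, 6 of the 82 tested members were lower in KO (7.32%) and 0 were higher, whereas 46.1% of the 14268 genes tested were called, 22.9% lower and 23.2% higher. The genes that fell were Rps2, Rpsa and Rps12 of the small subunit and Rpl22l1, Rpl12 and Rpl35a of the large. At an unadjusted p under 0.05 there were 14 members, 13 lower and 1 higher, against 54.1% of all genes. DESeq2 also called 6 lower and 0 higher, among 39.7% of its genes called (20.1% lower, 19.6% higher). With limma voom 7 were lower and 1 higher, among 46.6% (22.7% lower, 24% higher).

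By median standard error, the intervals of members were narrower than those of genes in general and about as wide as those of other abundant genes. This median was 0.145 for members, 0.195 for all tested genes and 0.147 for non-members that averaged 400 CPM or more. The part of interval width in the number of calls was not tested. Whether an interval lies within a given fold of no difference depends on the estimate as well as on the width. The 95% interval lay within 2-fold of no difference for 78 of 82 members, compared with 46% of all tested genes, and within 1.5-fold for 53 members, compared with 20.1%. The median log2 fold change was -0.11, with quartiles of -0.27 and 0.04, beside a median of 0.013 and quartiles of -0.52 and 0.55 over all genes tested. The estimate was negative for 53 members and positive for 29. Other abundant genes were called about as often as genes in general. Of the 241 non-members that averaged 400 CPM or more, 118 were called (49%), 32 higher and 86 lower, and the interval lay within 2-fold for 167 of them (69.3%).

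The subunits were alike in these counts. In the large subunit 3 of 51 tested members were lower (5.88%) and 0 higher, with a median of -0.11. In the small subunit 3 of 31 were lower (9.68%) and 0 higher, with a median of -0.13. All 3 KO libraries lay below all 3 controls for 13 members (8 Rpl and 5 Rps), where 28% of all genes did so, and above them for 2, Rpl31 and Rps7, where 29.9% did so. For the other 67 members the groups overlapped, whereas the groups did not overlap for 57.9% of all genes. The number of calls moved with the fit. When libraries of equal number were paired (replicate block), 13 members were lower and 2 higher, while 26.4% and 27% of all genes were, and in replicates 1 and 2 alone Rpl22l1 and Rps2 were the 2 lower members and 0 were higher, while 44.3% of all genes were called (21.7% lower, 22.7% higher). Scaling by library size alone left 4 lower and 2 higher. Of all genes called with that scaling 57.6% were higher, against 50.3% with TMM factors. Without control 1 there were 9 lower. The fits without control 2 and without KO 1 each gave 4 lower, the first with 1 higher. Without KO 2 or KO 3 there were 2 lower. Over all genes, the fits that left out 1 library called 4460 to 7050 genes. The share of all genes called in each of these fits, and by library size alone, is not given here. Their member counts thus show how far the calls moved and not how members compare with other genes.

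**Figure D1:**
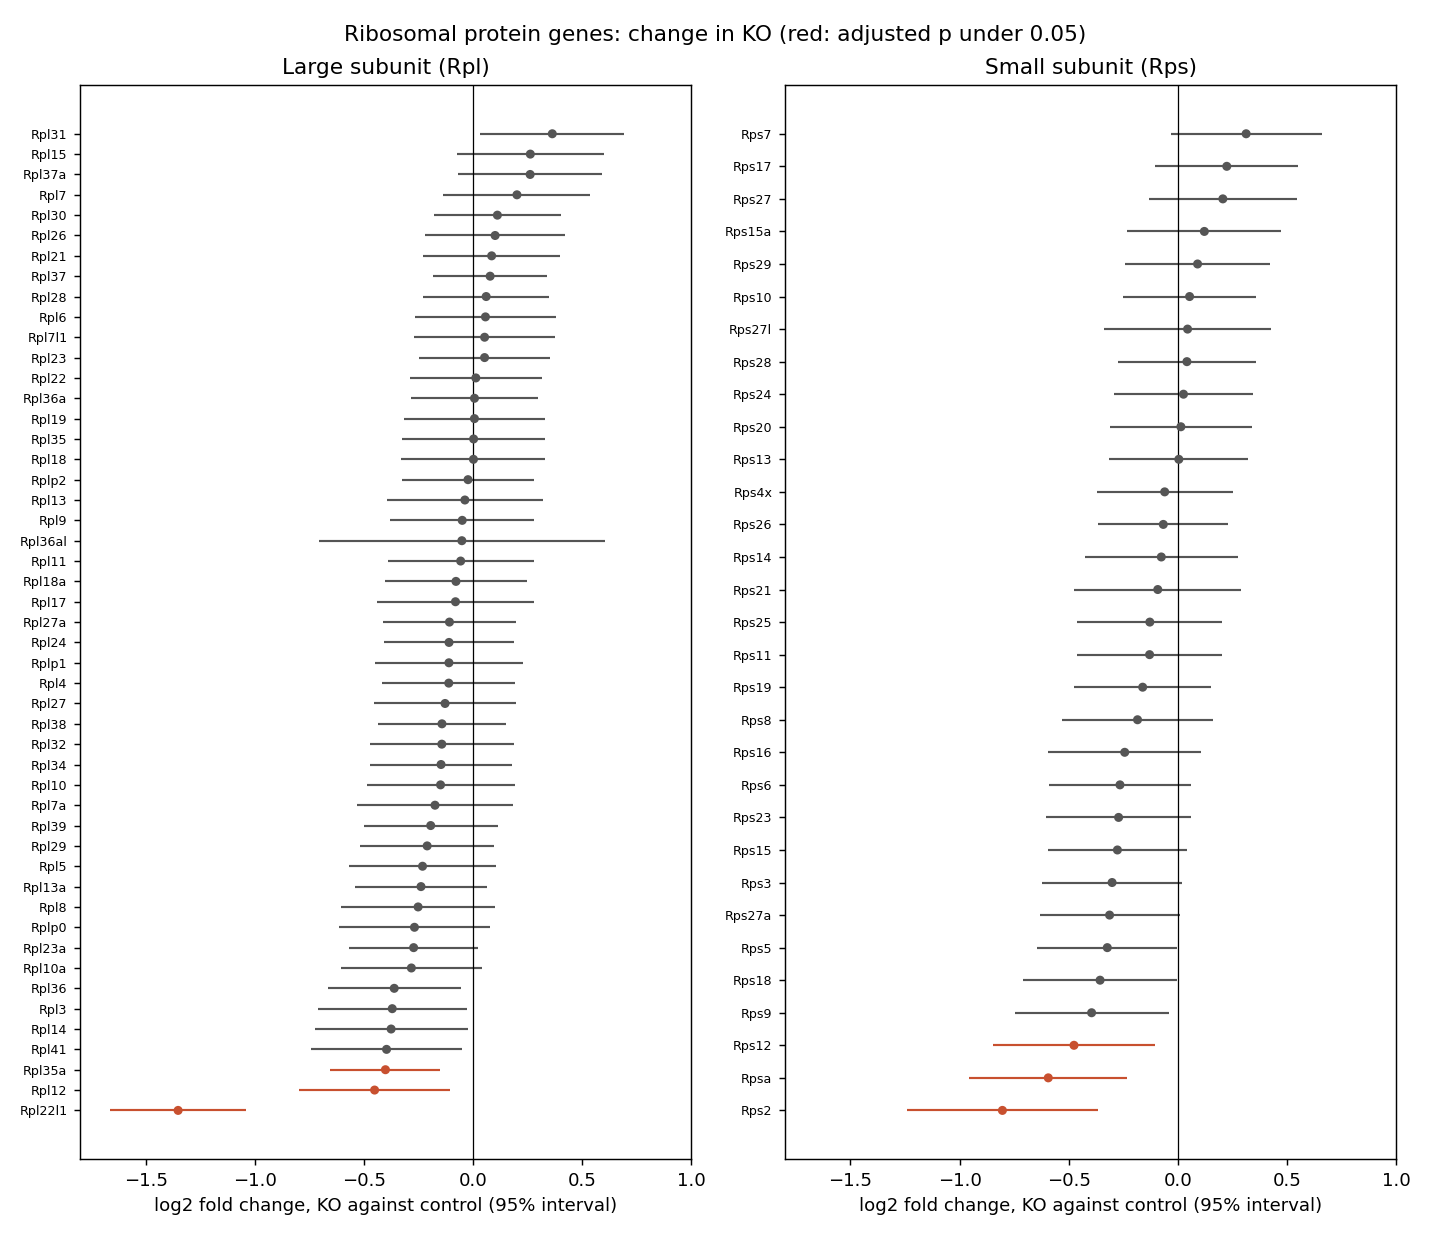
Log2 fold change (KO against control, edgeR, x axis) of the ribosomal protein genes of each subunit (y axis), with 95% intervals as lines and the 6 called genes in red; Rpl3l and Rpl39l, with few reads and wide intervals, are left out. Most intervals cross 0, and Rpl22l1 stands apart at -1.35.

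In the small subunit the largest decrease was in Rps2 (chr17:24718116-24721929), whose protein lies at the entry of the mRNA channel. It stood at 2665, 3741 and 2707 CPM in the control libraries and at 1903, 1928 and 1389 CPM in the KO libraries. Every KO library was below every control. The mean went from 3038 ± 609.7 (SD, n = 3) to 1740 ± 304 CPM, which was 57.3% of control (log2 -0.80, SE 0.193, 95% interval -1.24 to -0.37, edgeR adjusted p = 0.00928). It was called in 16 of 16 alternative fits.

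Rpsa (chr9:120127689-120132369) encodes the small subunit protein also known as the laminin receptor precursor. Its levels were 3119, 3974 and 3415 CPM in controls and 2498, 2497 and 1968 CPM in KO libraries. The groups did not overlap. The fold change was log2 -0.59 (95% interval -0.96 to -0.23, edgeR adjusted p = 0.0151), or 66.3% of control. In replicates 1 and 2 alone it was -0.51 with an edgeR adjusted p of 0.0714. It was 0.0516 without KO 2 and 0.0733 without KO 3, and the call was thus lost in each of these 3 fits.

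Rps12 (chr10:23785183-23787275), a further protein of the small subunit, stood at 1443, 1813 and 1507 CPM in controls and at 1238, 1257 and 931 CPM in KO. The KO libraries again lay below the controls, by a smaller gap. The fold change was log2 -0.48 (SE 0.163, edgeR adjusted p = 0.040), or 71.9% of control. Its call held in 10 of 16 alternative fits and in 2 of the 6 that left out 1 library. It was lost without control 2 (adjusted p = 0.102), KO 1 (0.0709), KO 2 (0.0768) or KO 3 (0.154), in replicates 1 and 2 alone (0.118) and by library size alone (0.0719).

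In the large subunit Rpl22l1 (chr3:28805436-28807424) had the largest decrease of any abundant member. It is a paralog of Rpl22, the protein that is needed for the development of αβ T cells and that is known to hold down Rpl22l1 expression. Control libraries had 131, 142 and 172 CPM and KO libraries 62.8, 59.7 and 52.2 CPM. The highest KO library was thus under the lowest control by a wide margin. The mean fell from 148.5 ± 21.4 to 58.2 ± 5.47 CPM (SD, n = 3), 39.2% of control (log2 -1.35, SE 0.137, 95% interval -1.66 to -1.04, edgeR adjusted p = 0.000248). It was called in 16 of 16 alternative fits, and leaving out a library gave -1.50 to -1.28.

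Rpl12 (chr2:32961559-32965345) encodes the protein at the base of the stalk, next to the site where elongation factors act. It stood at 1260, 1647 and 1483 CPM in controls and 1102, 1176 and 934 CPM in KO libraries. The fold change was log2 -0.45 (SE 0.152, edgeR adjusted p = 0.0375), or 73.2% of control. This call was the least stable of the 6: it held in 9 of 16 alternative fits, in 1 of the 6 that left out a library, that without control 1 (adjusted p = 0.0293). The others gave 0.0522 (without control 3) to 0.149 (without KO 3), replicates 1 and 2 alone gave 0.156, and library size alone 0.0679.

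Rpl35a (chr16:33056453-33060189), one of the genes mutated in Diamond-Blackfan anaemia, a red cell aplasia, had 452, 428 and 457.5 CPM in controls and 352, 345 and 316 CPM in KO libraries. Its control libraries were the closest together of the 6 called genes relative to their mean. The fold change was log2 -0.40 (SE 0.111, edgeR adjusted p = 0.0174), or 75.7% of control. The call was lost without KO 2 (adjusted p = 0.0658), without KO 3 (0.0800) and in replicates 1 and 2 alone (0.0823). It was also lost when the size factors were taken from the ribosomal protein genes (log2 -0.30, adjusted p = 0.128).

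**Figure D2:**
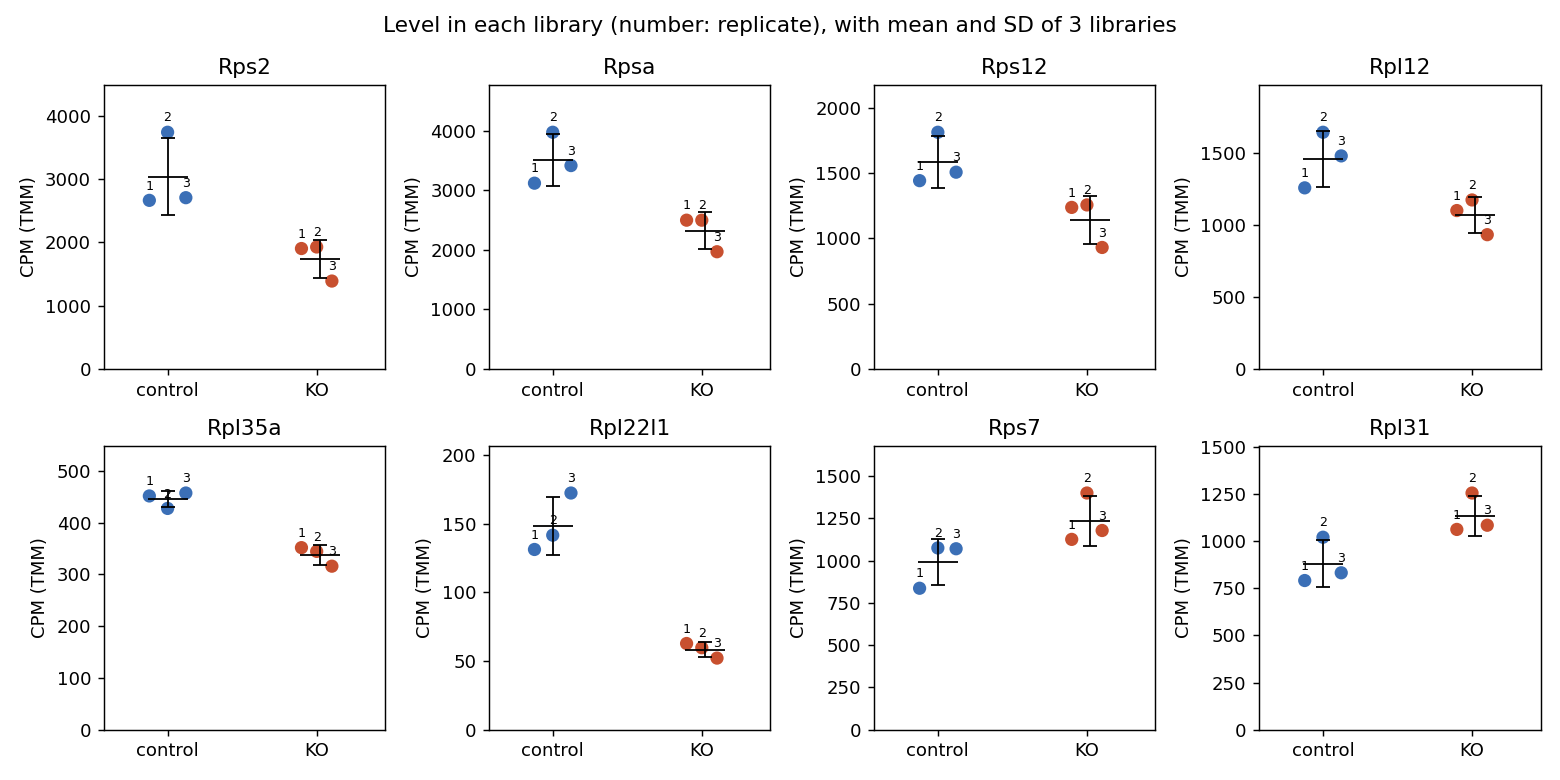
Level (TMM-scaled CPM, linear axis from 0) of the 6 members lower in KO and of Rps7 and Rpl31; points are libraries numbered by replicate, and lines are the mean and SD of 3. The KO points lie below the control points for the first 6 genes and above them for Rps7 and Rpl31.

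Of the 82 tested members, Rpl31 and Rps7 alone had every KO library above every control on the TMM scale. Rpl31 (chr1:39367842-39371911), a protein near the exit of the peptide tunnel, stood at 792, 1022 and 833 CPM in controls and 1063, 1256 and 1085 in KO. It was not called (log2 0.36, SE 0.145, edgeR adjusted p = 0.0677), but was in 4 of 16 alternative fits: library size alone, limma voom, the replicate block and the fit without control 2. Rps7 (chr12:28630854-28635953), a small subunit protein that also binds the p53 regulator MDM2, had 837, 1076 and 1071 CPM in controls and 1126, 1401 and 1179 in KO (log2 0.31, edgeR adjusted p = 0.122). It was called higher in 2 of 16 fits, the block and library size alone. Rpl31 and Rps7 were singled out after their values were seen.

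The members shared much of their spread within each group. Among the 79 members above 50 CPM, control 2 was the highest control for 72 and control 1 the lowest for 72, while KO 2 was the highest KO library for 72 and KO 3 the lowest for 70. Relative to the TMM factors, the level common to the members was -0.12, 0.20 and 0.073 on the log2 scale in controls and -0.069, 0.080 and -0.17 in KO. This shared shift enters the spread, and so the standard error, of every member in the fit on the TMM scale.

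An edgeR fit with size factors taken from the ribosomal protein genes themselves, chosen after the data were seen, takes this shift out and compares each member with the rest of the ribosome. On that scale 5 members were lower and 5 higher, among 39.2% of all genes called, 16.2% lower and 23% higher. The lower ones were Rpl22l1 (log2 -1.25), Rps2 (-0.69), Rpsa (-0.49), Rps12 (-0.37) and Rpl12 (-0.34). The higher ones were Rpl31 (0.47, edgeR adjusted p = 0.0106), Rps7 (0.42, 0.0190), Rpl15 (0.37, 0.0342), Rpl37a (0.37, 0.0298) and Rpl7 (0.31, 0.0441).

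Scaled in this way, Rpl31 had 858, 887 and 792 CPM in controls and 1115, 1189 and 1221 in KO, and Rps7 had 907, 934 and 1018 against 1182, 1326 and 1326. In both the groups lay further apart than on the TMM scale. Leaving out each library in turn kept the calls of Rpl22l1, Rps2, Rpsa and Rpl31 in 6 of 6 fits, of Rps7 in 2, and of Rps12, Rpl12, Rpl15, Rpl37a and Rpl7 in 1, that without control 3. On this scale the block gave 9 lower and 7 higher, among 52.5% of all genes called. With replicates 1 and 2 alone, 4 were lower and 2, Rpl31 and Rps7, were higher, among 30.8% of all genes called. The groups did not overlap for 54 of 82 members on this scale, beside 52.1% of all genes. By construction it centres the members on 0, which moves the median of all genes to 0.118, so the higher calls are relative to the other ribosomal protein genes and not to the whole transcriptome.

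**Figure D3:**
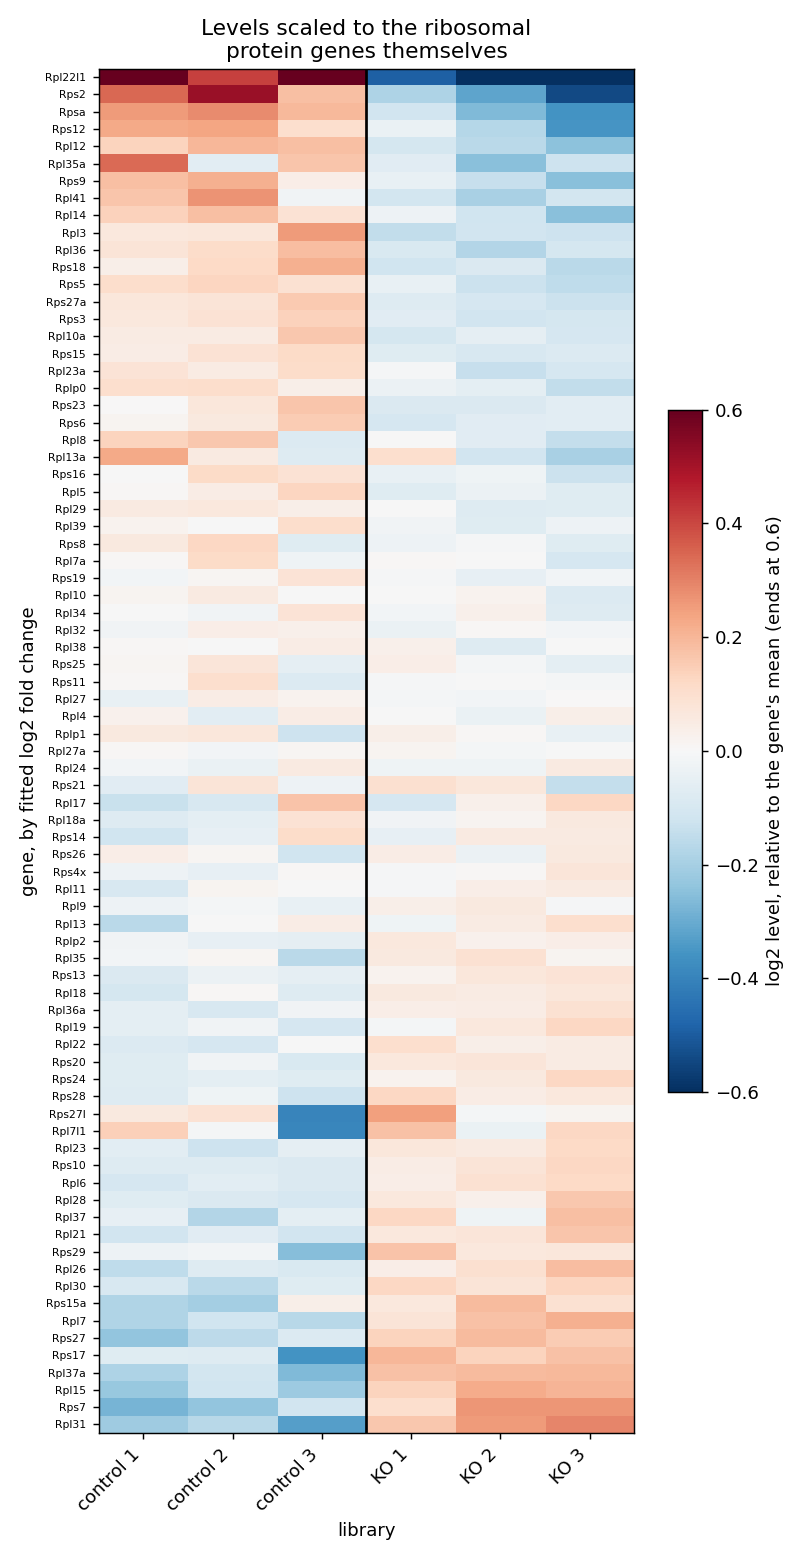
Log2 level of each of the 79 members above 50 CPM (rows, ordered by fitted log2 fold change) in each library (columns), scaled to the ribosomal protein genes and shown relative to the gene's mean; red is above and blue below, and the colour scale ends at 0.6. Control columns are red and KO columns blue for Rpl22l1, Rps2 and Rpsa at the top, the reverse holds for Rpl31 and Rps7 at the bottom, and the middle rows are pale.

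The share of each library taken by the whole set was nearly equal in the groups. Ribosomal protein genes held 7.74, 9.34 and 8.57% of the counts in controls and 8.17, 9.13 and 7.47% in KO libraries, with means of 8.55 ± 0.801 and 8.26 ± 0.830% (SD, n = 3). The groups overlapped (exact permutation p = 0.7). Rpl genes took 4.96 ± 0.444 and 4.93 ± 0.473%, and Rps genes 3.59 ± 0.359 and 3.33 ± 0.360% (exact permutation p = 0.5 for Rps). In bulk libraries such as these, fewer cells of a type and less RNA per cell cannot be told apart, and a share says nothing of the amount of RNA per cell.

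The ratio of Rps to Rpl counts, which needs no scaling factor, separated the groups by a small margin. Its log2 was -0.47, -0.44 and -0.49 in controls and -0.54, -0.56 and -0.60 in KO, a difference of -0.10. Each KO library lay below each control, which gives an exact permutation p of 0.1, the smallest that 3 libraries against 3 allow. Rps2 and Rpsa carried most of it. Together they took 0.633 ± 0.0839% of control and 0.419 ± 0.0665% of KO counts. Without both genes, a choice made after the data were seen, the difference in the ratio was -0.015 and the groups overlapped. Dropping the most decreased Rps genes while keeping all Rpl genes had to move this difference upward, so only the size of the move is informative. The remaining members then held 7.92 ± 0.727 and 7.84 ± 0.774% of the counts.

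**Figure D4:**
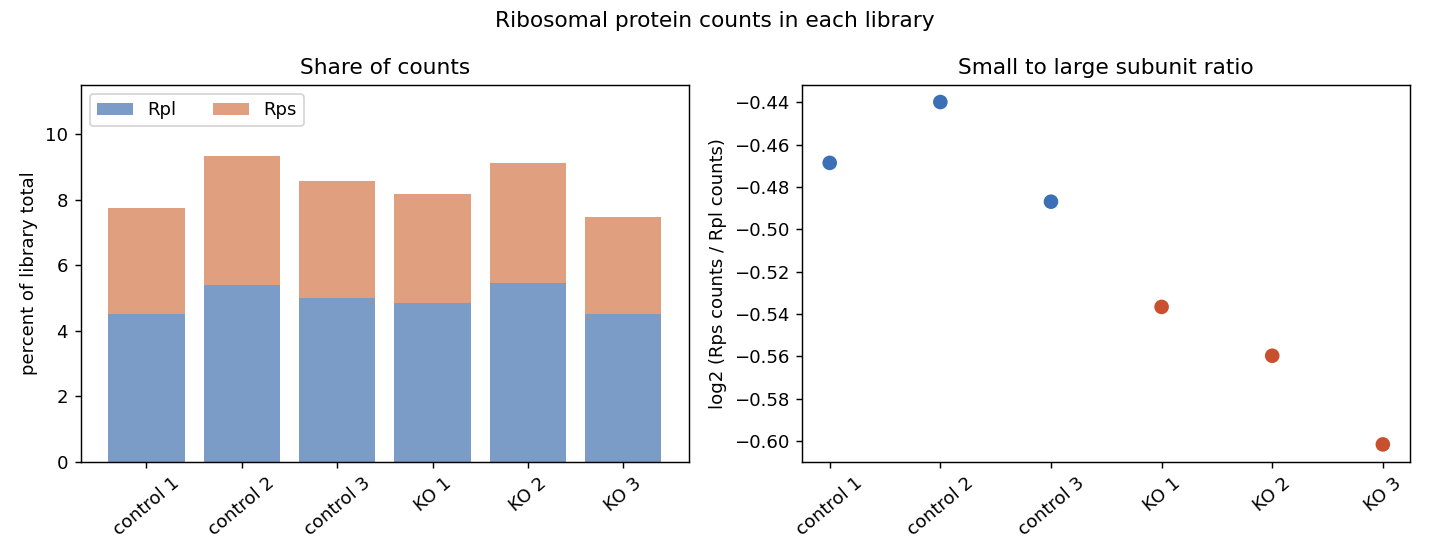
Left, percent of the library total in Rpl and Rps genes (stacked bars, 1 per library); right, log2 ratio of Rps to Rpl counts (1 point per library, axis not from 0). The shares overlap between the groups, and the ratio is lower in each KO library than in each control.

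Members of the stalk, the ribosomal RNA-binding pair Rpl5 and Rpl11, and Rps6 were not called. The stalk, which recruits elongation factors, is built from Rplp0, Rplp1 and Rplp2. Rplp0 had 3211 ± 369 CPM in controls and 2667 ± 313 in KO (log2 -0.27, edgeR adjusted p = 0.179), Rplp1 1958 ± 263 and 1814 ± 187 (-0.11, 0.574), and Rplp2 924 ± 93.3 and 909 ± 72.7 (-0.023, 0.901). Rpl5 and Rpl11, which bind the small ribosomal RNA of the large subunit and can hold MDM2 when ribosome assembly fails, had log2 fold changes of -0.23 (edgeR adjusted p = 0.232) and -0.056 (0.776). Rps6, the target of the S6 kinases, went from 976 ± 130 to 812 ± 73.1 CPM (-0.27, 0.16). Rpl3, which lies by the peptidyl transferase centre, was at -0.37 with an edgeR adjusted p of 0.0728, and it passed with the replicate block (0.0418) and without control 1 (0.0365). Rpl36, Rpl41, Rps9 and Rpl14 lay just outside the threshold too, at edgeR adjusted p-values of 0.0535, 0.0602, 0.0648 and 0.0752, beside 0.0375 for Rpl12 and 0.040 for Rps12 just inside it. With the replicate block these 4 were called lower as well, at edgeR adjusted p-values of 0.0304, 0.0248, 0.0226 and 0.0305.

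The paralogs were compared within each library as the ratio of the copy to its main gene, in 6 of 8 listed pairs. The other 2 had no usable copy: Rpl10l had 0 counts and Rps4l was not a row of the table. Rpl22l1 made up 21.4, 19.2 and 22.9% of the Rpl22 and Rpl22l1 counts in controls and 10.001, 9.05 and 9.30% in KO libraries. The highest KO share was under every control share. The ratio in KO was 0.389 of that in controls (log2 -1.36, exact permutation p = 0.1, the smallest that 3 libraries against 3 allow, 0.3 adjusted over the 6 pairs), and it was -1.45 to -1.29 when any 1 library was left out. Rpl22 itself had 482, 595 and 582 CPM in controls and 565, 600 and 509 in KO (log2 0.01, 95% interval -0.29 to 0.32, edgeR adjusted p = 0.944). Its groups overlapped, and its estimate was slightly negative under upper-quartile scaling and in DESeq2.

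In the pairs of Rps27l and Rpl7l1 the groups overlapped. Rps27l, a p53 target, made up 19.6 ± 3.52% of its pair in controls and 17.9 ± 1.72% in KO (exact permutation p = 0.5). Its own level was 186.5 ± 39.95 and 192 ± 22.2 CPM (log2 0.04, edgeR adjusted p = 0.845), and that of Rps27 was 766 and 884 CPM (log2 0.21, edgeR adjusted p = 0.284). Rpl7l1, which works in assembly of the large subunit, made up 8.35 ± 1.43 and 7.59 ± 0.783% of its pair (exact permutation p = 0.5), with 162 and 168 CPM of its own. Rpl7 stood at 1788 and 2057 CPM (edgeR adjusted p = 0.293).

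The remaining copies had few reads. Rpl36al, at 1.87 and 1.81 CPM, with 24.5% of its exon length overlapping Gm49383, and the testis-type Rpl39l, at 0.609 and 0.718 CPM, had overlapping groups. The muscle-type Rpl3l had 6, 19 and 21 counts in controls and 7, 5 and 0 in KO (log2 -1.56, SE 0.692, edgeR adjusted p = 0.0938), the lowest point estimate of all members and one that rests on few reads. The ratio of Rpl3l to Rpl3 was lower in each KO library than in each control. Its difference was log2 -1.72 (exact permutation p = 0.1, 0.3 adjusted over the 6 pairs), as few reads and the pseudocount allow. Their main genes Rpl36a and Rpl39 had log2 fold changes of 0.01 and -0.19, and the X-linked Rpl10 and Rps4x had -0.15 and -0.06. Directions this close to 0 were not stable: those of Rplp2, Rpl11 and Rps4x turned positive by library size alone, and that of Rpl36a negative in DESeq2. For each of the 4 X-linked members control 3 lay between the other controls, and KO 3 was the lowest KO library, as it was for most autosomal members.

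**Figure D5:**
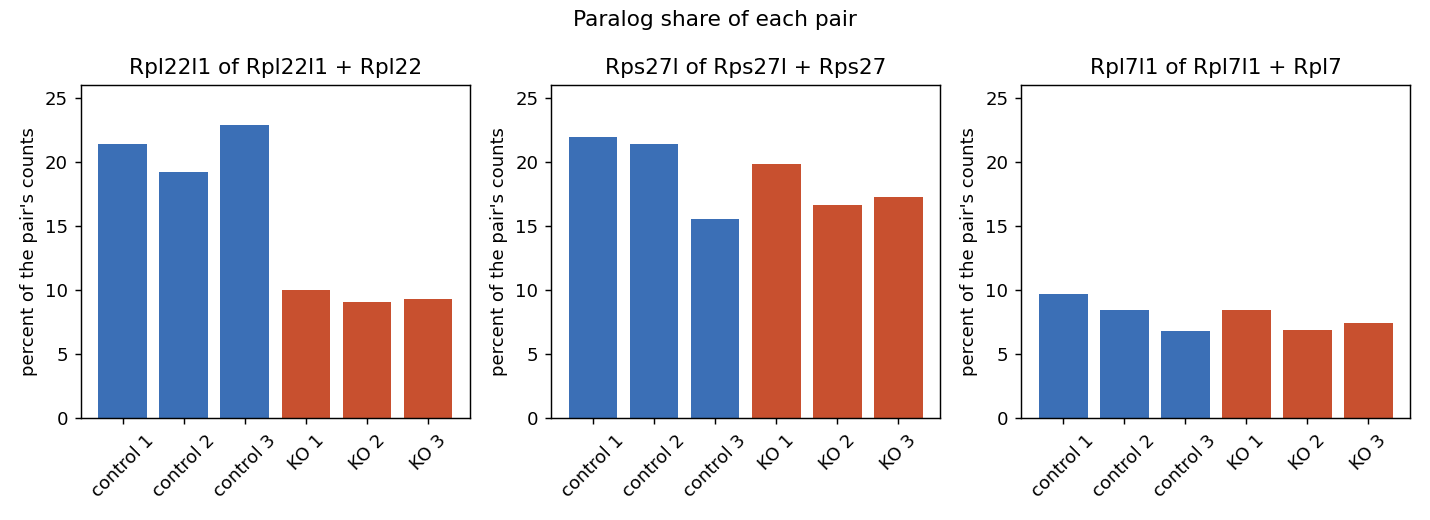
Percent of the pair's counts that came from the copy, for 3 pairs, 1 bar per library (blue control, red KO). Rpl22l1 lay at 19.2 to 22.9% in controls and 9.05 to 10.001% in KO libraries, while Rps27l and Rpl7l1 overlapped between the groups.

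Levels can be compared between genes only per length, here as CPM per kilobase of merged exons. This length follows the annotation. For Rpl22l1 and Rpl9 the merged exons take in the whole gene span (1989 and 3081 bases), and for Rpl36 they take 383 bases. Rpl36 also shared 81.1% of its 50-base stretches with other genes. The ranks thus depend on the annotation as well as on the mRNA level. On that scale Rplp1 was highest in both groups, with 3923 in controls and 3635 in KO libraries, and Rplp0, Rpl36 and Rps2 followed in controls with 1936, 1694 and 1660. Rps2 went from rank 4 of the members to rank 12 in KO, at 951. Rpsa went from rank 13 to 22 and Rps12 from 21 to 33, whereas Rpl31 went from 42 to 27 and Rps7 from 46 to 30. Rpl22l1, at 74.7 and 29.3, was one of the lowest ubiquitous members already in controls (rank 77), and Rpl22 had 190 and 192. Across the 79 members above 50 CPM the log2 fold change had Spearman correlations of -0.27 with this control level and 0.040 with exon length. The Spearman correlation was -0.26 with control CPM and 0.22 with gene span. With log2 control CPM the Pearson correlation was -0.050. These are given as a description, since all members share the same libraries and the control values also enter the fold change.

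The members lie on 19 chromosomes, and 29 of the 82 tested hold annotated snoRNA genes within their span, 56 in all. Of the 6 called genes 4 do: Rps2 holds Snora64, Rpsa Snora62, Rps12 Snora33 and Snord100, and Rpl12 Snora65. Among the 76 members not called 25 do. The median log2 fold change was -0.14 with snoRNAs and -0.067 without.

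Ribosomal protein genes have many processed copies in the genome, and reads from these cannot be fully told apart from the parent gene. The median member shared 20.4% of its 50-base stretches with transcripts of other genes. The share was 43.0% for Rps2, 28.7% for Rpsa, 24.98% for Rps12, 17.6% for Rpl12, 12.8% for Rpl22l1 and 6.2% for Rpl35a. How reads that match several places were counted is not given in the sources used here, so the levels are uncertain by an amount that was not measured. For Rpl31, 25.3% of the exon length overlapped Tbc1d8, and strand use in the counting is not given in the sources used here. The 9 pseudogene symbols in the table, those with a -ps ending, took 0.00878 ± 0.000614% of control and 0.00820 ± 0.000426% of KO counts, far less than the members. Genes with names of another form also share stretches with members, such as Gm10275 with Rpl12 and Gm10243 with Rpl35a. Their counts were not summed.

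Other genes of the translation machinery are given for comparison. Of the ribosomal proteins whose symbols the rule does not take, Rps3a1 (log2 0.0096, edgeR adjusted p = 0.978), Fau (-0.20, 0.309) and the scaffold Rack1 were not called. Rack1 had 1795 CPM in controls and 1760 in KO (edgeR adjusted p = 0.885).

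Elongation and initiation factors were read against the 46.1% of all genes called, 22.9% lower and 23.2% higher. Of 8 elongation genes 3 were lower and 0 higher, with a median of -0.39: the kinase Eef2k (-1.62), the selenocysteine factor Eefsec (-0.99) and the translocase Eef2, which went from 4949 ± 539 to 3594 ± 261 CPM (-0.46, edgeR adjusted p = 0.0289). Eef1a1 stood at 9112 and 7021 CPM and was not called (edgeR adjusted p = 0.109). Of 36 initiation genes 8 were lower and 1, Eif2b2, was higher, with a median of -0.19. Eif4ebp1, the cap-binding inhibitor under mTOR control, had the largest decrease (log2 -2.49), followed by Eif2b3 (-0.92) and Eif2s2 (-0.70).

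The last lists stand beside the same shares of all genes, 22.9% lower and 23.2% higher. Among 17 other genes with a TOP tract 4 were lower, a share near that of all genes, and 0 higher, with a median of -0.27. These included Hnrnpa1 (log2 -1.36, edgeR adjusted p = 0.00126) and the nucleolar chaperone Npm1 (-1.15, 0.00209), and Eef2 and Eif4a2 were the other two. Tpt1 was at 0.0039. Of 7 tested dedicated chaperones of ribosomal proteins and their import 3 were lower, Heatr3 (-0.88), Ltv1 (-0.75) and Pdcd2l (-0.68), with a median of -0.68. Of 3 tested snoRNA host genes 2 were lower, Snhg12 (-1.14) and Snhg6 (-0.77). Some genes stand in more than 1 of these lists.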

How the data were processed

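The authors deposited 1 table of whole-number counts per gene symbol for the 6 libraries. Per the submitters' processing notes, STAR, featureCounts, DESeq2 and build mm10 were used. The annotation and strand setting are not given in the sources used here. There were 0 columns without a sample. Counts were tested with edgeR 4.0.16 (R 4.3.3): TMM factors, filterByExpr by group, quasi-likelihood test of KO against control over all 14268 genes kept, and Benjamini-Hochberg adjustment with a threshold of 0.05. The SE is the absolute log2 fold change over the square root of F. Shares and ratios are within-library values, with a pseudocount of 0.5 for paralog ratios, and permutation tests were exact and two-sided. The biological coefficient of variation was 0.212. No molecular identifiers are stated, so reads need not be independent molecules. Only the edgeR fit was tested on simulated counts, which held fewer changed genes than were called here.

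The members and lists were chosen with earlier results of these data known. The genes named are Rtf1, the paralog pairs, the stalk genes, Rpsa, Rpl5, Rpl11, Rps6, up to 5 called members in each direction and subunit, and up to 4 called genes of each other list; the members beside the threshold, those called on the scale of the members, X-linked members, Rpl36, Rack1, Eef1a1 and Tpt1 were added after their values were seen. Same-numbered libraries of the groups deviated together (r = 0.27, 0.13 and 0.38), so the numbers were read as pairs from the data. Among unequal numbers, control 2 with KO 1 had r = 0.20, above that of control 2 with KO 2, and the others had -0.39 to -0.018. The pairing of library 2 was thus not singled out, and the replicate block rests on a pairing read from these same data. Gene spans, exons and snoRNAs are from GENCODE M21 (GRCm38), start sites from RefSeq (GRCm38.p6). Alternatives were DESeq2 1.42.0, limma 3.58.1 voom, other scalings and filters, the replicate block, replicates 1 and 2 alone, and leaving out each library. Values of some genes of the marker and translation lists are not reported here.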

Additional observations from a re-analysis of the deposited data

How the results depend on the processing

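Across 16 alternatives Rpl22l1 and Rps2 were called lower in 16, Rpsa and Rpl35a in 13, Rps12 in 10 and Rpl12 in 9. Upper-quartile factors gave 5 lower Rpl members, and of all genes called with these factors 47.8% were higher. Library size alone gave 2 higher members (1 Rpl, 1 Rps), and limma voom 1 higher, an Rpl. The replicate block gave 13 lower (7 Rpl, 6 Rps) and 2 higher (1 Rpl, 1 Rps), and, scaled to the members, 9 lower. Replicates 1 and 2 alone gave 2 lower (1 Rpl, 1 Rps), and 2 higher scaled to the members. In that subset the KO minus control difference in share was 0.11 percentage points for all members and 0.20 for Rpl, and the log2 ratio of Rpl36al to Rpl36a differed by 0.0096.

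Leaving out 1 library gave 2 to 9 members lower (1 to 5 Rpl, 1 to 4 Rps), 0 to 1 higher (Rpl 0 to 1) and a median log2 fold change of -0.27 to -0.043, the first without control 1. Without KO 2 or KO 3 the number lower was 2. Over all genes 4460 to 7050 were called. Scaled to the members, 3 to 7 were lower and 1 to 6 higher, among 26.1% to 39.0% of all genes called. The share difference was -0.73 to 0.10 for all members and -0.29 to 0.18 for Rpl, and the log2 ratio differed by -0.18 to 0.024 for Rpl36al to Rpl36a and by -0.17 to 0.81 for Rpl39l to Rpl39.

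Genes near 0 changed sign. Rpl36a had -0.0048 with DESeq2 size factors, -0.012 with upper-quartile factors, -0.016 in DESeq2 and -0.0044 without a filter. Rpl22 had -0.0058 with upper-quartile factors and -0.0098 in DESeq2. Library size alone gave 0.039 for Rpl36al, 0.030 for Rps4x, 0.068 for Rplp2 and 0.036 for Rpl11. Replicates 1 and 2 alone gave -0.041 for Rpl7l1, 0.10 for Rpl36al, -0.0065 for Rps27l, 0.033 for Rplp2 and 0.0053 for Rpl11. Leaving out a library gave -0.15 to 0.075 for Rpl22, -0.14 to 0.16 for Rpl7l1, -0.14 to 0.049 for Rpl36a, -0.15 to 0.21 for Rps27l, -0.40 to 0.79 for Rpl39l, -0.16 to 0.038 for Rplp2, -0.24 to 0.030 for Rpl11 and -0.15 to 0.011 for Rpl36al. The cause was not tested. Depth limits Rpl3l and Rpl39l, which had few reads.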
